A study of Mus musculus with 6 samples.

Results

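The Hippo pathway genes described here, 10 of the 23478 genes in the deposited table, were read in muscle and epithelial cells sorted from the trachea of mouse embryos. They were taken by symbol and comprise the co-activators Yap1 and Wwtr1 (which encodes TAZ), the DNA-binding factors Tead1, Tead2, Tead3 and Tead4, the kinases Lats1 and Lats2, the angiomotin gene Amot and the LIM-domain gene Ajuba. All 10 passed the filter on low counts. Cells came from E13.5 (embryonic day 13.5) tracheas of embryos labelled control, with the genotype Bmp4 f/f; gamma SMA eGFP in every library. Both groups thus carry floxed Bmp4 alleles and the gamma smooth muscle actin eGFP reporter, and no Cre is named in the labels. Muscle cells were sorted by GFP and epithelial cells by an Epcam stain, with 3 libraries per population. The gate for muscle follows the reporter, so other cells with eGFP would be collected with it. The labels do not say whether libraries came from separate embryos or litters, so p-values measure the spread between these libraries, which may be partly technical.

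The Hippo pathway is a kinase cascade that controls the location and stability of a pair of related co-activators, YAP and TAZ. When the LATS kinases are active they phosphorylate YAP and TAZ, which are then held in the cytoplasm or degraded. When LATS is inactive, YAP and TAZ enter the nucleus and act through the TEAD proteins, since neither binds DNA by itself. Angiomotins bind YAP and TAZ at junctions and actin, and Ajuba-family proteins bind LATS at junctions under tension. The pathway is regulated largely by phosphorylation, which RNA counts do not measure. YAP is required for normal branching and epithelial patterning of the mouse lung and airway.

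TEAD proteins bind a short motif, GGAATG on one strand and CATTCC on the other. The promoters of the 3 genes that passed the test below are shown with that of Yap1, the paralogue of Wwtr1, and that of Ccn1 (listed as Cyr61 in the count table), a much used target of the pathway. Each line gives the 250 bases before the RefSeq start (GRCm38.p6, the assembly that mm10 corresponds to), 5′ to 3′ on the gene's strand, with motif matches in capitals.
Wwtr1 (chr3:57575911-57576160, minus strand): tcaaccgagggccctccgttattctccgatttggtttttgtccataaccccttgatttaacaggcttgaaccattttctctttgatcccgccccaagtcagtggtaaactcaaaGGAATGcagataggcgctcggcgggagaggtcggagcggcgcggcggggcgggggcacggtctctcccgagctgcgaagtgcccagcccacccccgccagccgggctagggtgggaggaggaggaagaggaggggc
Yap1 (chr9:8004597-8004846, minus strand): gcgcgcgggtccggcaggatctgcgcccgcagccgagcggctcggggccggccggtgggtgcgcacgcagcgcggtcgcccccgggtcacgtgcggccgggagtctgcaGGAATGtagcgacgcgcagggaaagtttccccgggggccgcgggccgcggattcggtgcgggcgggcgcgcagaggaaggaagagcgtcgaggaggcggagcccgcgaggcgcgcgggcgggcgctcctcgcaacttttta
Amot (chrX:145487640-145487889, minus strand): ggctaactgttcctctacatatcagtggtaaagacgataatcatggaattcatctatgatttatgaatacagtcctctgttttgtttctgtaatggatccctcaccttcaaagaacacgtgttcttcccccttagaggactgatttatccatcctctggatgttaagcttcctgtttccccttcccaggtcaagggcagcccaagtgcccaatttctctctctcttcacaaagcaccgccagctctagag
Ajuba (chr14:54577662-54577911, minus strand): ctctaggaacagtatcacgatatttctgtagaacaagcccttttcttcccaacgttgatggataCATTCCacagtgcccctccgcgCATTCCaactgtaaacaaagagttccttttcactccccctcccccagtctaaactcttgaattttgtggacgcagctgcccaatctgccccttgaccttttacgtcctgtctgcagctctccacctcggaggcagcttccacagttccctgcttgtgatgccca
Ccn1 (chr3:145649986-145650235, minus strand): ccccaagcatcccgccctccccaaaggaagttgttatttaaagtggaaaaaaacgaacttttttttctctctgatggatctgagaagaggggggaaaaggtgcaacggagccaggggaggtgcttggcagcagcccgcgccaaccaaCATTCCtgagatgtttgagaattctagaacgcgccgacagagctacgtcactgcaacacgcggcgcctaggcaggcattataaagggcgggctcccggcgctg
Both strands were searched. Of 32851 RefSeq promoters of that length, 12.6% held at least 1 match and 1.02% held at least 2. Of the 10 genes, 8 had a promoter in the RefSeq table, and 4 of the 8 (Yap1, Wwtr1, Tead3 and Ajuba) had a match in at least 1 window. Wwtr1, Tead3 and Lats2 had more than 1 window each. The count by gene is therefore not on the scale of the shares of promoters above. The Ajuba promoter held 2 matches, which begin 186 and 164 bases before the start. The match in Wwtr1 begins 136 bases before its start and that in Yap1 141 bases before, while the Amot window held none. That window lies inside the GENCODE gene given for Amot below, at a RefSeq start downstream of the outermost annotated one. The match in Ccn1 begins 103 bases before its start. A match describes these letters and is not evidence that a factor binds there.

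Total counts ranged from 11847432 to 54848820 per library. The populations carried their sorting labels in every library. Actg2, the gene of gamma smooth muscle actin, had 403 to 2786 CPM (counts relative to library size, scaled by trimmed mean of M-values, TMM) in muscle and 1.60 to 2.47 in epithelium, and Epcam had 0.646 to 2.20 in muscle and 541 to 710 in epithelium. Acta2 (log2 fold change 9.47) and Cdh1 (-7.61) separated the populations likewise. All 8 smooth muscle markers were higher in muscle and all 8 epithelial markers in epithelium. Libraries differed within groups. Identifiers in the file header, read as dates, put replicate 2 of both populations on an earlier date than the other 4 libraries, and what was dated is not given. The identifiers of these 4 are not all written alike, and those of the libraries numbered 3 differ. That these 4 libraries share a later date is therefore a reading of the identifiers. Muscle replicate 2 had a summed smooth muscle marker level of 4001 CPM against 16104 and 17077 in the other muscle libraries. Epithelium replicate 2 had 1260 CPM summed over 6 fibroblast and mesenchyme markers, against 150 and 207 in the other epithelial libraries and 4365 to 6258 in muscle. In muscle replicate 2 and epithelium replicates 2 and 3, olfactory and vomeronasal receptor genes averaged 0.531, 0.979 and 0.410 CPM per gene, against 0.0046 to 0.030 in the other 3 libraries, and Tead4 lies at a few CPM itself. In cells sorted in bulk, a lower level can come from less RNA per cell or from fewer cells that express the gene, which cannot be told apart here.

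Of the 10 genes, 3 passed an adjusted p of 0.05 (edgeR's quasi-likelihood test, Benjamini-Hochberg adjustment over all 19375 genes tested). Wwtr1 and Amot were higher in muscle and Ajuba was higher in epithelium. Among all genes tested, 10.7% passed in either direction, 6.58% toward muscle and 4.11% toward epithelium. The median log2 fold change (muscle over epithelium) of the 10 genes was 0.39, against -0.10 for all genes tested. With scaling by library size alone the median of all genes moved by -0.24, and the calls over all genes went from 1274 higher in muscle and 797 in epithelium to 1041 and 1439. The groups did not overlap in 4 of the 10 genes, these 3 and Tead4, against 26.9% of all genes tested. Without muscle replicate 1, or without replicate 1 or 3 of epithelium, 1 of the 10 genes, Wwtr1, passed. A missed threshold does not show that levels were equal.

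**Figure D1:**
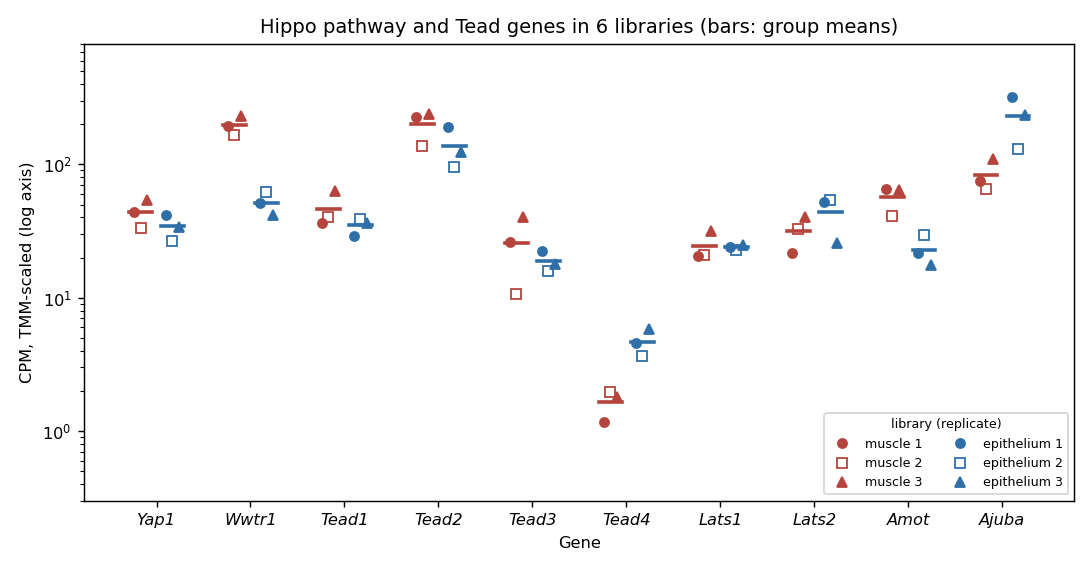
CPM (TMM-scaled, log axis) of the 10 genes in each library, muscle in red and epithelium in blue, with a symbol per replicate and a bar at each group mean. Wwtr1 lies at 167 to 233 CPM in muscle and 41.4 to 62.2 in epithelium, while Yap1 overlaps between the populations.

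Among the co-activators, the libraries of the muscle gate differed from the epithelial ones in Wwtr1 and not detectably in Yap1. Some markers of other mesenchyme were also higher in these muscle libraries. The log2 fold change was positive for 4 of 6 cartilage markers and for all 6 fibroblast and mesenchyme markers. Past the threshold toward muscle were 2 of 6 cartilage markers and 5 of 6 fibroblast and mesenchyme markers, against 6.58% of all genes tested. The part of such cells in the Wwtr1 values was not tested. Wwtr1 (ENSMUSG00000027803.14, chr3:57455649-57575910 of mm10, minus strand, GENCODE annotation) had 194, 167 and 233 CPM in muscle replicates 1 to 3 and 51.7, 62.2 and 41.4 CPM in epithelium replicates 1 to 3. Every muscle library exceeded every epithelial one. The log2 fold change was 1.93 ± 0.26 (SE), or 3.82-fold, with an adjusted p of 0.0020 (edgeR). Wwtr1 was past the threshold in all 15 alternative analyses, at log2 fold changes from 1.64 to 2.12. The epithelial library with the most Wwtr1 was replicate 2, the one with the most mesenchyme markers, and without it the log2 fold change was 2.02 (adjusted p = 0.0021, edgeR).

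Yap1 (ENSMUSG00000053110.13, chr9:7931999-8004596, minus strand) had 44.3, 33.5 and 54.3 CPM in muscle and 41.9, 26.7 and 34.1 CPM in epithelium. The groups overlapped, with muscle replicate 2 under epithelium replicates 1 and 3. The log2 fold change was 0.36 ± 0.27, short of the threshold (adjusted p = 0.60, edgeR) here and in all 15 alternatives. Its mean level was 44.1 ± 10.4 CPM (SD, n = 3) over the muscle libraries and 34.3 ± 7.59 over the epithelial ones. Yap1 shares 1.25% of its exon length with Gm20416 on the opposite strand, whose reads an unstranded library cannot tell apart from its own.

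The balance between the co-activators can be read within each library, where scaling between libraries plays no part. Counts of Wwtr1 were 4.37, 4.97 and 4.28 times those of Yap1 in muscle replicates 1 to 3 and 1.23, 2.33 and 1.21 times in epithelium replicates 1 to 3. All muscle ratios lay above all epithelial ratios, and epithelium replicate 2 lay between the other epithelial libraries and muscle. The difference in log2 ratio was 1.58, or 2.99-fold (exact permutation test, two-sided, p = 0.10, the smallest that 3 against 3 libraries allow, and 0.30 after Benjamini-Hochberg adjustment over 3 ratios). Per length the ratio depends on the gene model. Divided by exon length, Wwtr1 stood at 8.29 to 9.62 times Yap1 in muscle and at 2.35 to 4.50 times in epithelium. Divided by the longest annotated coding length, Wwtr1 stood at 4.62 to 5.36 times Yap1 in muscle and at 1.31 to 2.51 times in epithelium.

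**Figure D2:**
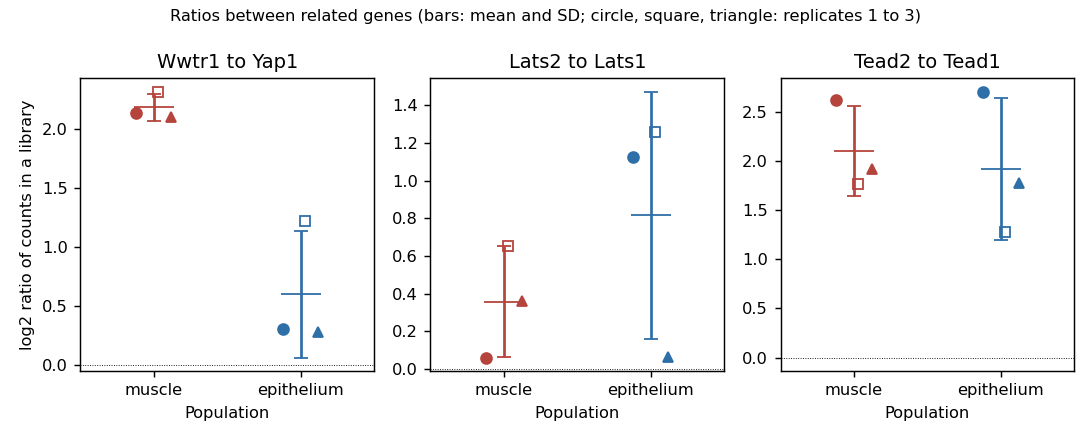
Log2 ratio of the counts of 2 related genes within each library (y axis) by population, with the mean and SD of 3 libraries per group. The ratio of Wwtr1 to Yap1 separates the populations, while the ratios of Lats2 to Lats1 and of Tead2 to Tead1 overlap.

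The Tead genes, which encode the DNA-binding partners of YAP and TAZ, did not pass the threshold in edgeR in either direction. Tead2 (chr7:45215753-45233644, plus strand), a family member prominent in embryonic tissue, was the most abundant, with 225, 138 and 240 CPM in muscle and 192, 95.2 and 125 CPM in epithelium. The groups overlapped, and the log2 fold change was 0.55 ± 0.33 (adjusted p = 0.44, edgeR). Muscle replicate 2 and epithelium replicate 2 had the lowest Tead2 of their groups. Tead1 (chr7:112679318-112906807, plus strand) had 36.4, 40.4 and 63.2 CPM in muscle and 29.3, 39.2 and 36.3 in epithelium (0.42 ± 0.28, adjusted p = 0.50, edgeR). Muscle replicate 3 stood above the other 5 libraries. Tead3 (chr17:28331671-28350817, minus strand) had 26.4, 10.7 and 40.4 CPM in muscle, which bracketed the 22.4, 16 and 18.0 CPM of epithelium (0.46 ± 0.43, adjusted p = 0.73, edgeR). Without muscle replicate 3 its log2 fold change was -0.01.

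Tead4 (chr6:128224288-128300823, minus strand) was the rarest of the 10 genes and the one Tead gene without overlap between the groups. It had 1.18, 1.95 and 1.79 CPM in muscle (31, 39 and 71 counts) and 4.55, 3.68 and 5.86 CPM in epithelium (245, 55 and 156 counts). All epithelial libraries were above all muscle libraries, and the log2 fold change was -1.52 ± 0.91, short of the threshold (adjusted p = 0.44, edgeR). DESeq2 called it (adjusted p = 0.041), the only one of the 15 alternatives to do so, over which the adjusted p ranged from 0.041 to 0.90. The lowest epithelial value was in replicate 2, where receptor genes averaged 0.979 CPM. The part of such background in the Tead4 values was not tested.

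Levels of different genes were compared per kilobase of exon (TMM-scaled CPM divided by the union of GENCODE exons). On that scale Tead2 made up 84.6% ± 2.70 (SD, n = 3) of the summed Tead level in muscle and 80.1% ± 4.91 in epithelium. Tead1 contributed 7.12% ± 1.95 and 7.92% ± 3.22, and Tead3 7.27% ± 2.56 and 8.12% ± 0.973. Tead4 contributed 0.607% to 1.60% in the muscle libraries and 2.71% to 4.93% in the epithelial libraries. Tead2 thus held the largest share in every library of both populations. With the longest coding length in place of exon length, a choice made after seeing the data, its share was 61.7% to 78.0% over the 6 libraries and that of Tead1 rose to 12.1% to 25.9%. The count ratio of Tead2 to Tead1 differed between the populations by 0.18 on the log2 scale (exact permutation test, two-sided, p = 0.80), less than the spread of either group.

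**Figure D3:**
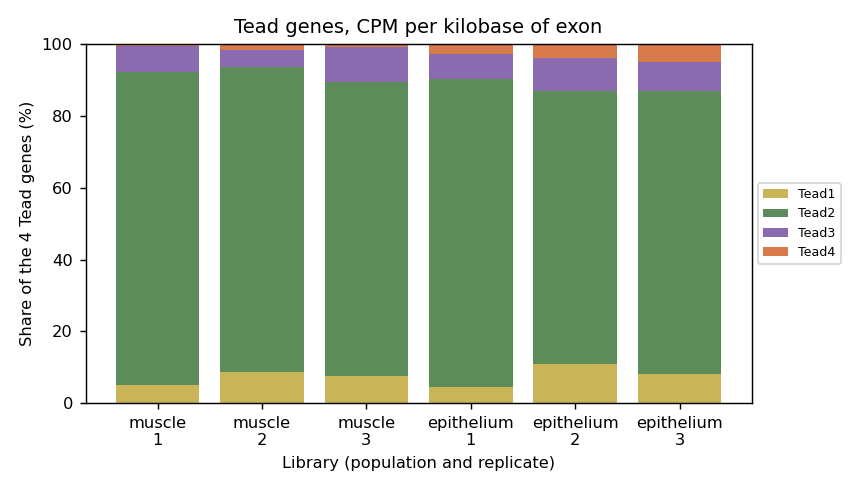
Share (%) of each Tead gene in the summed level of the 4 Tead genes, on the scale of CPM per kilobase of exon, for each library. Tead2 holds 76.0% to 87.1% of the sum in every library, and Tead4 is the smallest share.

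The kinases Lats1 and Lats2 phosphorylate YAP and TAZ, and neither passed the threshold. Lats1 (chr10:7681214-7716460, plus strand) had 20.7, 21.0 and 31.6 CPM in muscle and 24.0, 22.7 and 24.8 CPM in epithelium. The epithelial libraries lay within the range of muscle, and the log2 fold change was 0.04 ± 0.26 (adjusted p = 0.97, edgeR), with a sign that changed with the scaling. Lats2 (chr14:57689662-57758388, minus strand) had 21.6, 33.0 and 40.6 CPM in muscle and 52.3, 54.5 and 25.9 CPM in epithelium. Epithelium replicate 3 fell among the muscle libraries, and the log2 fold change was -0.48 ± 0.35 (adjusted p = 0.58, edgeR). Lats2 shares 42.4% of its exon length with the annotated gene Gm49361 on the same strand, and how the authors assigned such reads is not given, so its values are uncertain. Counts of Lats2 were 1.04 to 1.57 times those of Lats1 in muscle and 1.05 to 2.40 times in epithelium (difference in log2 ratio -0.46, exact permutation test, two-sided, p = 0.30).

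Amot encodes a scaffold that binds YAP at tight junctions and on actin filaments. Amot (ENSMUSG00000041688.16, chrX:145446425-145505181, minus strand) had 65.7, 40.7 and 64.1 CPM in muscle and 21.6, 29.4 and 17.7 CPM in epithelium. No epithelial library reached the lowest muscle library, replicate 2. The log2 fold change was 1.31 ± 0.29, or 2.49-fold (adjusted p = 0.021, edgeR). The call held in 9 of the 15 alternatives. Among the losses were scaling by library size alone (adjusted p = 0.061) and the fits in which muscle replicate 1 (0.066) or 3 (0.063) or epithelium replicate 1 (0.053) or 3 (0.11) was left out. The highest epithelial value and the lowest muscle value both came from replicate 2, the libraries of the earlier header date. The log2 ratio of their CPM, with a pseudocount of 0.5 and no test, was 0.46. A separate fit of the 4 libraries of the later date, a different measure, gave 1.65 (adjusted p = 0.0053, edgeR).

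Its paralogues, named after their values were seen, did not pass. Amotl1 averaged 185 ± 54.7 CPM (SD, n = 3) over muscle libraries and 130 ± 26.2 over epithelial ones (log2 fold change 0.51 ± 0.29, adjusted p = 0.40, edgeR). Amotl2 had 233 ± 38.9 and 243 ± 96.5 CPM (-0.06 ± 0.32, adjusted p = 0.97, edgeR). Whether Amot differed from its paralogues in this respect was not tested.

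Ajuba encodes a LIM-domain protein that binds LATS at cell junctions, and its expression was higher in epithelium. Ajuba (ENSMUSG00000022178.11, chr14:54567472-54577558, minus strand) had 75.0, 65.7 and 109 CPM in muscle and 322, 130 and 236 CPM in epithelium. The lowest epithelial library, replicate 2, exceeded the highest muscle library, replicate 3,. The log2 fold change was -1.46 ± 0.36, or 2.75-fold (adjusted p = 0.033, edgeR). It passed in 11 of the 15 alternatives and was lost when muscle replicate 1 (adjusted p = 0.13) or 2 (0.059) or epithelium replicate 1 (0.096) or 3 (0.070) was left out. A separate fit of the later header date gave -1.67 (adjusted p = 0.0096, edgeR). The libraries numbered 2, of the earlier date, had a log2 ratio of CPM of -0.97, a different measure without a test. The related genes Limd1 and Wtip, named after their values were seen, overlapped between the groups, at 128 ± 44.9 and 10.5 ± 1.99 CPM (SD, n = 3) in muscle and 124 ± 11.8 and 9.89 ± 1.94 in epithelium.

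**Figure D4:**
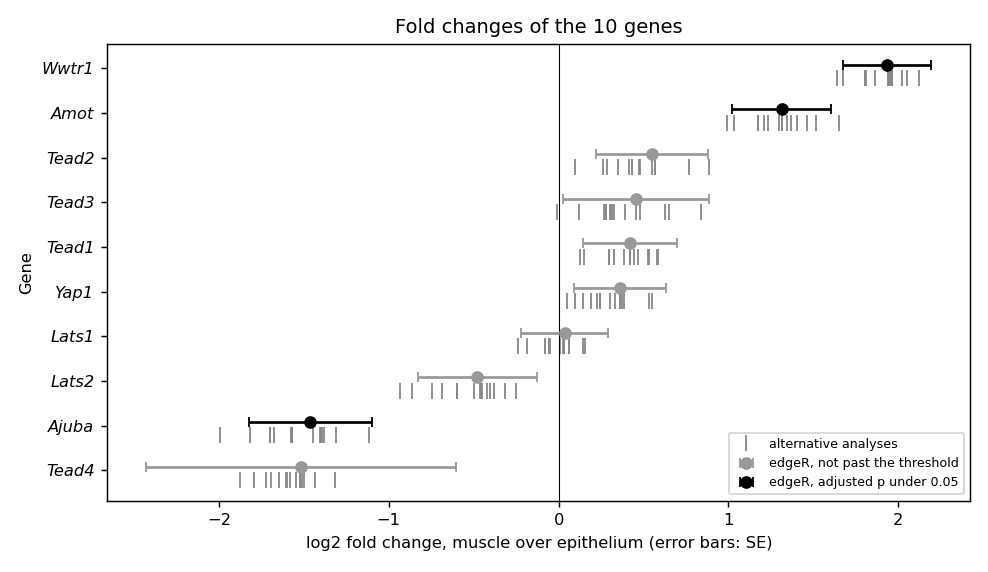
Log2 fold change of muscle over epithelium for the 10 genes, with the SE from edgeR (points, black where the adjusted p is under 0.05) and the values of the 15 alternative analyses (grey ticks). All ticks of Wwtr1 and Amot lie above 0 and all ticks of Ajuba below, while those of Lats1 and Tead3 fall on both sides.

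The order of the 10 genes was compared on the scale of CPM per kilobase of exon. In muscle, Tead2 (42.0 ± 11.5, SD, n = 3) and Wwtr1 (41.4 ± 6.95) led and did not differ beyond their spread, followed by Ajuba (22.8 ± 6.26). Amot (6.76 ± 1.67), Yap1 (4.76 ± 1.12), Lats2 (4.55 ± 1.37), Tead3 (3.85 ± 2.21), Tead1 (3.44 ± 1.06) and Lats1 (3.35 ± 0.853) formed a lower group in which SD intervals of neighbours overlapped, and Tead4 (0.456 ± 0.113) was the lowest. In epithelium, Ajuba (62.9 ± 26.4) led. Its SD interval overlapped that of Tead2 (28.6 ± 10.3), but Ajuba was higher within each epithelial library (88.3, 35.5 and 64.8 against 40.0, 19.9 and 26.1). Wwtr1 (10.8 ± 2.17) came next. The remaining order was Lats2 (6.34 ± 2.28), Yap1 (3.70 ± 0.820), Lats1 (3.27 ± 0.143), Tead3 (2.80 ± 0.490), Amot (2.72 ± 0.710), Tead1 (2.57 ± 0.377) and Tead4 (1.31 ± 0.305), and SD intervals of neighbours overlapped from Lats2 down to Tead1. With coding length, Yap1 (30.1 ± 7.10 in muscle) and Tead1 (35.7 ± 11.0) moved above Amot (16.8 ± 4.15), so the order within the lower group depends on the gene model.

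Other genes of the pathway were taken from lists. Of 14 core kinases and adaptors, 1 passed the threshold, Wwc2, which encodes a junctional scaffold that activates LATS. It was higher in epithelium, with 14.3, 19.4 and 23.8 CPM in muscle and 52.3, 38.2 and 30.9 CPM in epithelium (-1.08 ± 0.29, adjusted p = 0.0497, edgeR). Its call is close to the threshold and was lost in 9 of the 15 alternatives (adjusted p from 0.0058 to 0.19). Its paralogue Wwc1, named after its value was seen, had 1.41, 5.24 and 2.05 CPM in muscle and 13.2, 11.1 and 13.1 in epithelium, without overlap (-2.11 ± 0.61, adjusted p = 0.061, edgeR). Of the 14, 7.14% thus passed, against 10.7% of all genes tested. None passed toward muscle in edgeR with TMM scaling and no covariate. There, 3 toward muscle and 2 toward epithelium had an unadjusted p under 0.05, against 2613 and 1584 of all 19375 genes tested. With the header date as a term edgeR called 2 toward muscle and 1 toward epithelium, DESeq2 called 2 toward each, and limma-voom called 0 toward muscle and 2 toward epithelium. The median log2 fold change of the list was 0.33, against -0.10 for all genes.

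The kinases upstream of LATS were present in both populations. Stk3, which encodes MST2, averaged 112 ± 23.9 CPM (SD, n = 3) over muscle libraries and 70.5 ± 9.51 over epithelial ones, without overlap (0.67 ± 0.25, adjusted p = 0.14, edgeR). Stk4, which encodes MST1, had 76.2 ± 19.99 and 93.8 ± 14.7 CPM (-0.30 ± 0.27, adjusted p = 0.72, edgeR). The scaffold gene Sav1 had 5.37 ± 2.64 and 3.90 ± 1.72 CPM, and the LATS co-factor gene Mob1a 49.1 ± 9.58 and 41.3 ± 3.797. Nf2, which encodes the membrane-associated activator merlin, averaged 157 ± 48.0 CPM over muscle libraries and 101 ± 23.5 over epithelial ones (0.63 ± 0.30, adjusted p = 0.27, edgeR).

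Of 17 upstream and junction regulators tested, 2 passed toward muscle and 1 toward epithelium, with a median log2 fold change of 0.10. That is 17.6% of the list, against 10.7% of all genes tested. Fat4 and Dchs1, which encode giant protocadherins that bind each other between cells, were the 2 in muscle. Fat4 had 170, 167 and 227 CPM in muscle and 10.9, 51.7 and 17.6 CPM in epithelium (log2 fold change 2.82 ± 0.54, adjusted p = 0.010, edgeR). The epithelial library with the most Fat4 was again replicate 2, with the most mesenchyme markers, and without it the log2 fold change was 3.69 (adjusted p = 0.00020, edgeR). The 4 libraries of the later date gave 3.73 (adjusted p = 0.0014, edgeR). Dchs1 had 150, 108 and 224 CPM in muscle and 72.8, 66.2 and 27.5 CPM in epithelium (1.53 ± 0.41, adjusted p = 0.046, edgeR). Its call was lost in 9 of the 15 alternatives, with an adjusted p of up to 0.15, among them those without muscle replicate 1 or 3 or epithelium replicate 2 or 3. Crb3, which encodes an apical polarity protein of epithelia, had 41.7 to 58.9 CPM in epithelium and 0.076 to 0.449 in muscle (-7.99 ± 0.56, adjusted p = 0.00011, edgeR). The muscle libraries held 2, 9 and 5 counts of Crb3, so its fold change rests on few muscle counts, and without muscle replicate 2 it was -8.87 (adjusted p = 1.7e-05, edgeR).

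Of the vestigial-like cofactors, which bind TEAD proteins in competition with YAP and TAZ, 3 of 4 were tested and none passed in edgeR, DESeq2 or limma-voom, with 0 at an unadjusted p under 0.05. Vgll4, an antagonist of YAP, had 133, 115 and 166 CPM in muscle and 134, 72.0 and 128 CPM in epithelium (0.31 ± 0.30, adjusted p = 0.74, edgeR). The groups overlapped.

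Transcripts of known YAP and TAZ targets were then read from 21 genes of a signature drawn from human cancer data, without its member Lats2. Amotl2, Ptpn14 and Fjx1 stand on this list and on that of upstream regulators. Of the 21, 6 (28.6%) were higher in muscle, against 6.58% of all genes tested, and 12 had groups without overlap, against 26.9% of all genes tested. None passed toward epithelium in edgeR with TMM scaling and no covariate. There, 2 targets toward epithelium and 9 toward muscle had an unadjusted p under 0.05, against 1584 and 2613 of all 19375 genes tested. Calls toward epithelium numbered 1 with library size only, 1 with the replicate block and 2 with the header date as a term. They numbered 2 in the later date alone, 1 without muscle replicate 2, 1 with DESeq2 and 2 with limma-voom. The median log2 fold change was 0.62. Ctgf (now Ccn2), the connective tissue growth factor gene, had 447, 619 and 579 CPM in muscle and 210, 319 and 200 CPM in epithelium (1.17 ± 0.28, adjusted p = 0.027, edgeR). Every muscle library was above every epithelial library. The call was lost without muscle replicate 3 (adjusted p = 0.089), without replicate 1 (0.097) or 3 (0.18) of epithelium, with library size alone (0.14) and with median-ratio factors (0.054).

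Cyr61 (now Ccn1), a matricellular protein gene used like Ctgf to read out YAP and TAZ, differed the other way without passing the threshold. It had 4524, 1663 and 3259 CPM in muscle and 7281, 5035 and 7358 CPM in epithelium. No muscle library reached the lowest epithelial one, and the log2 fold change was -1.06 ± 0.37 (adjusted p = 0.12, edgeR). It passed in 7 of the 15 alternatives (adjusted p from 0.00090 to 0.29). Cyr61 is also an immediate early gene. The 8 listed genes of the response to tissue dissociation, most of them immediate early genes too, summed to 8228 to 23277 CPM in muscle and 23898 to 30995 in epithelium. Egr1 alone held 1311 to 3988 CPM of these sums in muscle and 6087 to 9686 in epithelium. Of the 8 genes, Egr1 (-1.89 ± 0.46, adjusted p = 0.030, edgeR, and -2.59 without muscle replicate 3) and Ier2 (-1.25 ± 0.29, adjusted p = 0.024, edgeR) were higher in epithelium, named after their values were seen. Among all genes tested, 4.11% passed toward epithelium. The other 6 of the 8 listed genes did not pass. Of these, Fos (0.05 ± 0.42), Fosb (0.41 ± 0.44), Jun (-0.34 ± 0.43), Junb (-0.21 ± 0.33) and Dusp1 (-0.84 ± 0.49) overlapped between the groups, and Atf3 (-1.14 ± 0.46, adjusted p = 0.18, edgeR) did not. The part of these genes' response in the Cyr61 values was not tested.

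The other 5 targets past the threshold were Ccdc80, Rbms3, Tgfb2, Crim1 and Axl. Ccdc80, a matrix protein gene, averaged 258 ± 35.7 CPM (SD, n = 3) over muscle libraries and 26.4 ± 12.7 over epithelial ones (3.29 ± 0.37, adjusted p = 0.00093, edgeR). Rbms3, which encodes an RNA-binding protein, had 301 ± 59.8 and 59.1 ± 1.69 CPM (2.35 ± 0.25, adjusted p = 0.00075, edgeR). Both passed in all 15 alternatives. The growth factor gene Tgfb2 followed at 1.52 ± 0.28 (adjusted p = 0.0095, edgeR), with its call lost without epithelium replicate 3 (0.055). Crim1, which encodes a transmembrane BMP-binding protein, was at 1.05 ± 0.28 (adjusted p = 0.041, edgeR) and the receptor tyrosine kinase gene Axl at 0.93 ± 0.25 (adjusted p = 0.044, edgeR). Crim1 and Axl each lost their call in 5 of the 6 fits that left out a library, keeping it without muscle replicate 2. Crim1 also lost it with library size only (adjusted p = 0.056), limma-voom (0.051) and the 3 libraries with least receptor background (0.16), and Axl without the filter (0.054). The count of targets past the threshold was 3 without muscle replicate 3, 3 without epithelium replicate 1 and 2 without epithelium replicate 3. It was 10 in the later date alone (8 of them toward muscle). The same fits called, over all genes tested, 1423 of 20552, 1561 of 20555, 1169 of 20230 and 2928 of 16634 (1776 toward muscle). With all 6 libraries, 2071 of 19375 were called. Of the 6 fibroblast and mesenchyme markers, 5 were higher in muscle too, against 6.58% of all genes tested. The part of these markers' cells in the target counts was not tested.

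**Figure D5:**
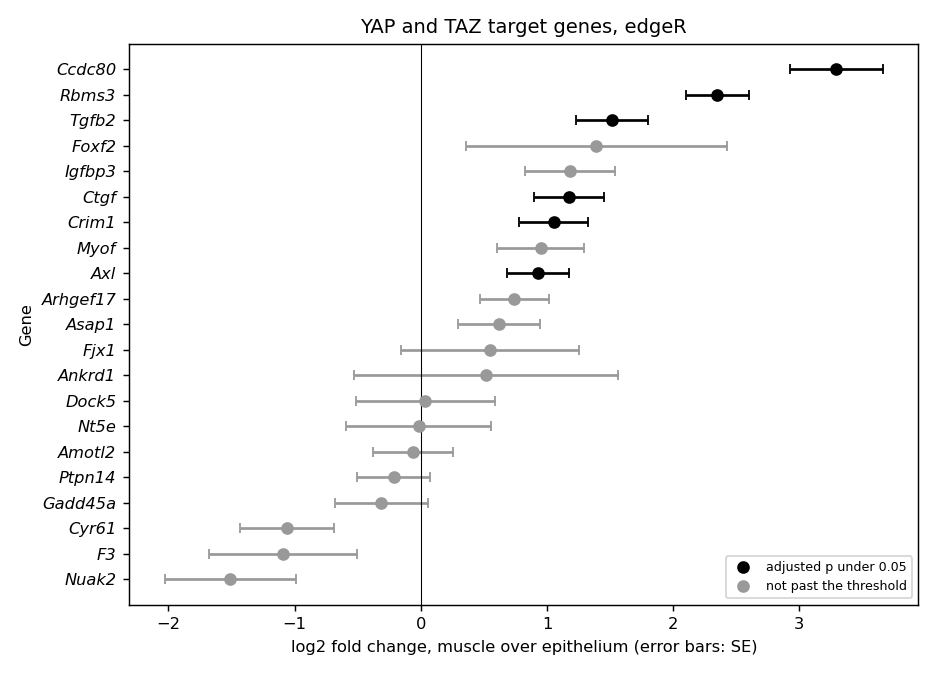
Log2 fold change of muscle over epithelium with SE (edgeR) for the 21 YAP and TAZ target genes, black where the adjusted p is under 0.05. The 6 genes past the threshold all lie to the right of 0, and Cyr61 lies to the left at -1.06 without passing.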

How the data were processed

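RNA was measured in 6 libraries, 3 from each population. Cells freed with TrypLE were sorted, Trizol was used for RNA, SMART-Seq v4 for cDNA and Nextera XT for libraries, per the labels' protocols. Such libraries, as usually made, carry neither strand nor molecular identifiers. The authors deposited whole-number counts per gene symbol. The submitters' processing notes name Trim Galore, Bowtie2, Cufflinks, DESeq and build mm10, with no roles, and the counting program is not given in the sources used here. From these deposited counts, CPM values were computed here.

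Libraries were grouped by title. Counts were filtered with filterByExpr, scaled by TMM and tested, muscle against epithelium, in R 4.3.3 with edgeR 4.0.16 (glmQLFit with robust spread, glmQLFTest, two-sided). P-values were adjusted by Benjamini-Hochberg across every gene tested, at a threshold of 0.05. The SE of a log2 fold change came from the test statistic. Ratios used a pseudocount of 0.5 and an exact permutation test. The test was tried on simulated data of 17268 genes. It recovered 6 of 100 genes given a log2 change of 1 and 65 of 100 given a change of 2, with 4 false calls. A difference of 2-fold would thus mostly be missed in such data. Alternatives were library size only, median-ratio (RLE) factors, no filter, DESeq2 1.42.0, limma-voom (limma 3.58.1), a replicate block, the date read from the file headers as a term or its later value only, each library left out, and, added later, the 3 libraries with least receptor background. Positions and exon lengths are from GENCODE (mm10). Ccn1 and Ccn2 were matched as Cyr61 and Ctgf through RefSeq synonyms, and Dchs2 was not analysed here.

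The 10 genes and all lists were chosen with earlier results of these data known. Genes named were the 10, those of each pathway list past the threshold with mean log2 CPM no lower than 2 and without overlap (at most 5 in each direction), 10 pathway genes chosen by role, and 4 sorting markers. Amotl1, Amotl2, Limd1, Wtip, Wwc1 and the 8 dissociation response genes were added after their values were seen. Axl was the 6th target toward muscle and is named outside that limit.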

Additional observations from a re-analysis of the deposited data

How the results depend on the processing

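Over all genes, the 2071 calls became 3549 with DESeq2, 3178 with the header date as a term and 2928 in the later header date alone. When a library was left out they became 1169 (without epithelium replicate 3) to 2573 (without muscle replicate 2), with 1323 without muscle replicate 1. Of the 10 genes, 1 to 3 passed when a library was left out. The core kinases and adaptors had 1 call, which became 2 with library size only, 0 without a filter, 4 with DESeq2, 2 with limma-voom, 3 with the date term, 2 with the 3 libraries of least background, and 0 to 1 when a library was left out (0 without muscle replicate 1 or 3 or epithelium replicate 1 or 2). Target genes numbered 6, 10 in the later header date alone, and 2 to 9 when a library was left out. In the 3-library fit the lone epithelial library is assumed to vary like muscle. The cause of these changes was not tested.

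Same-numbered libraries deviated together at r = 0.59 and 0.73 across genes for numbers 1 and 2 and at -0.57 for number 3. Muscle replicate 3 correlated best with epithelium replicate 1 (0.69). Epithelium replicate 3, read as of the later date, correlated best with muscle replicate 2 (0.63), of the earlier date. Its correlation with muscle replicate 1 was -0.43. With 3 libraries per group, such deviations cannot settle whether the numbers pair the libraries, which the labels do not say. With the replicate block 2418 genes passed, 2 of the 10 genes (Amot was at an adjusted p of 0.050) and 2 core kinases and adaptors, both toward muscle (Stk3 at 0.034 and Nf2 at 0.036). Of the targets, 6 passed toward muscle and 1 toward epithelium. For the count ratios the block gives the same difference by construction and is no check.

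The sign changed for Lats1 with library size (-0.24), RLE factors (-0.079), DESeq2 (-0.078), the 3-library fit (-0.058) and libraries left out (-0.18 to 0.16). It also changed for Mob1a with library size (-0.028) and Vgll4 in the 3-library fit (-0.022), and over all alternatives Limd1 ranged from -0.26 to 0.32 and Wtip from -0.37 to 0.27. When a library was left out, Tead3 ranged from -0.0087 to 0.84, Amotl2 from -0.41 to 0.32, and the difference in the log2 ratio of Tead2 to Tead1 from -0.14 to 0.58. The difference for Wwtr1 to Yap1 ranged from 1.42 to 1.89 and that for Lats2 to Lats1 from -0.83 to -0.24. Of the other fold changes of named genes, 454 kept direction and side of the threshold, 55 were no longer past it and 19 newly past it. Low counts limit Tead4 (31 to 245 counts) and, in muscle, Crb3 (2 to 9 counts).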

Other observations

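The genes whose log2 CPM, centred per gene, lay closest to Wwtr1 over the 6 libraries were Plagl1 (root mean square distance 0.074), 0610007N19Rik (0.10) and Efemp2 (0.11), among the 7042 genes whose mean log2 CPM reached 5. Plagl1, an imprinted zinc finger gene, had 347 CPM in muscle and 95.9 in epithelium on average (log2 fold change 1.86 ± 0.25, adjusted p = 0.0019, edgeR). Efemp2, which encodes the elastic fibre protein fibulin-4, had 255 and 65.4 CPM (1.97 ± 0.23, adjusted p = 0.0011, edgeR). The genes closest to Yap1 were Slc2a8 (0.036), Eif3h (0.037) and Vps28 (0.051), with log2 fold changes of 0.42, 0.42 and 0.40, none past the threshold. The libraries share sorting and depth, and the distance is a description of 6 libraries.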
